A study of Mus musculus with 2148 samples.

Results

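Aire-low cells are the medullary thymic epithelial cells that had almost no Aire transcript although they carried high MHC class II on their surface, the gate in which most cells transcribe Aire. They were chosen from the 620 adult wild-type (WT) mTEChi cells of a series of 1980 single thymic epithelial cells. Aire was expressed as CPM, the reads of a gene per 1000000 reads counted on genes in that cell. The 63 cells under 64 CPM of Aire were called Aire-low (10.2% of the sort) and the cells at 1000 CPM or more Aire-high (51.3%), and the 38.5% between these limits served as a middle class. The measured level of Aire thus chose the cells, and Aire itself was not tested.

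Each library was 1 cell of a C57BL/6 mouse, sorted into a 96-well plate and read by RamDA-seq, a full-length method for total RNA. The mTEChi gate took DAPI-negative, CD45-negative, EpCAM-positive, Ly51-negative cells with high MHC class II, mTEClo had low MHC class II, and cortical cells (cTEC) were Ly51-positive. Adult WT mTEChi came from males of 4, 5 and 6 weeks and females of 4 weeks, all untreated, on 9 plates. Newborn WT mTEChi and cTEC (1 day), WT mTEClo of males of 4, 5 and 8 weeks, cTEC of males of 6 weeks and mTEChi of males of 5 weeks without functional Aire (Aire-KO) served for comparison. The labels number no mice. Plates are technical units that may share mice, so a test over plates measures the spread between plates and not between animals.

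Aire is a nuclear factor through which mature medullary cells transcribe a great many genes that otherwise belong to other organs, each gene in a small share of the cells, and developing T cells that react to these self-antigens are removed or diverted. Aire is switched on late in medullary maturation, downstream of RANK, CD40 and NF-kB, together with costimulatory molecules. Cells that have passed the Aire stage can lose it again, and the medulla also holds mimetic cells that resemble peripheral epithelia such as skin keratinocytes, gut tuft cells, microfold cells or enterocytes.

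Aire (chromosome 10, 78030022 to 78043610 on GRCm38) had a median of 28.2 CPM in the Aire-low cells (0.963 to 63.97), 352.7 CPM in the middle class and 1911 CPM in the Aire-high cells (1003 to 5487). In reads, the Aire-low cells held a median of 22 Aire reads and the Aire-high cells 1474. Every adult mTEChi cell had at least 1 Aire read, so "Aire-low" does not mean that Aire was at 0. Just inside the lower limit the values were 63.63 and 63.97 CPM and just outside 66.72 and 67.002. At the upper limit they were 988 and 999.95 CPM outside and 1003 and 1005 CPM inside. Neither limit thus fell into a gap. Where no Aire transcription is known, in the 77 adult cTEC on a plate without mTEChi cells, the median was 0 CPM and 67 cells had no Aire read, but 3 cells reached the limit of 64 CPM (136.96 at most). Newborn cTEC that shared plates with mTEChi cells had medians of 6.29 to 15.8 CPM by plate, with 0 to 4 cells per plate at 64 CPM or more and a highest value of 2955 CPM, and whether a few Aire reads per well came from neighbouring wells was not tested.

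**Figure D1:**
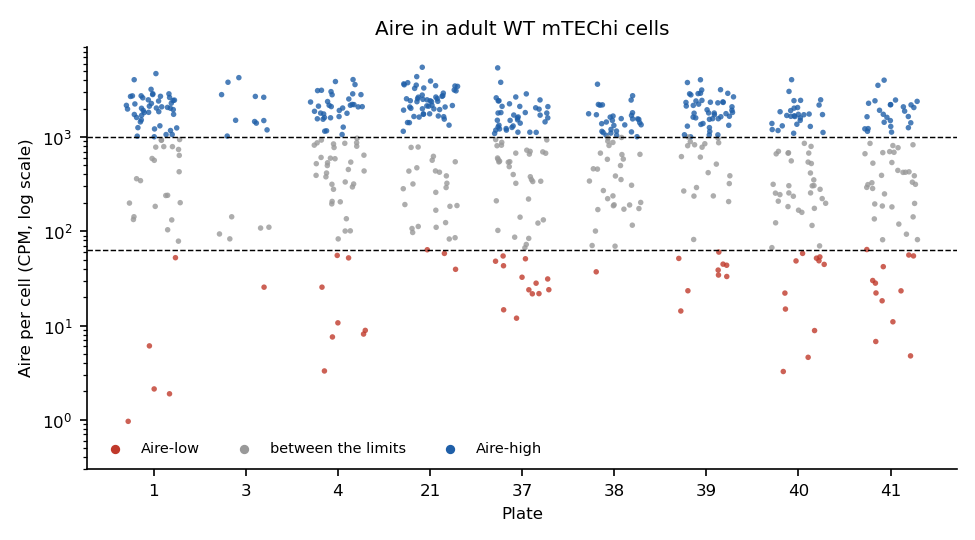
Aire per cell (CPM, log scale) in every adult WT mTEChi cell by plate, coloured by class, with dashed lines at the limits of 64 and 1000 CPM. Aire-low cells were found on all 9 plates, from 1 cell on plates 3 and 38 to 13 on plate 37.

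The share of Aire-low cells differed between plates, from 1.56% on plate 38 to 16.9% on plate 41. By age and sex, males of 4 weeks gave 51 of the 63 Aire-low cells. Males of 6 weeks gave 8 beside 37 Aire-high cells, females of 4 weeks 3 beside 53 and males of 5 weeks 1 beside 9. Depth was alike, with median totals of 786456 reads per Aire-low and 782532 per Aire-high cell. The epithelial marker Epcam had at least 5 reads in all 63 Aire-low cells, and the median of the leukocyte marker Ptprc was 0 CPM in every cluster. Plate 21, the females, entered with only 3 Aire-low cells and stood apart for several genes below.

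Genes were compared on counts summed per plate and class over the 7 plates with at least 3 cells of each class (61 Aire-low cells, and 26 to 53 Aire-high cells per plate), with the plate as a block, by edgeR's quasi-likelihood test. Aire and the overlapping Dnmt3l were left out. A gene was called where its fold reached 2 and its p, adjusted by Benjamini-Hochberg over all genes, stayed under 0.05. Of 20484 genes tested, 1081 were called higher in Aire-low cells, which is 5.28% of the genes tested, and 2457 were called lower, which is 12%. All 7 plates had the same direction for 863 and 2024 of them. The plate values of the classes did not overlap for 10.01% of all genes tested. Many called genes of either direction shared this, 1200 of the lower ones among them, so it does not single out a gene named below. A fitted fold of at least 8 was found for 60.1% of the lower and 18.1% of the higher genes. Among the called genes, patchy ones were more frequent on the lower side. At least 5 reads were found in under 20% of the cells of the class with the higher level for 920 lower genes and for 50 higher genes. Fewer Aire-low than Aire-high cells were summed, so a gene found in few Aire-low cells is hard to call higher. How much of this contrast comes from cell number was not tested.

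These counts rest on plates. Over the 3 mouse pools with at least 3 cells of each class (4-week males, 4-week females, 6-week males) edgeR called 0 genes in either direction at 2 residual degrees of freedom, with a smallest adjusted p of 0.0904, while an unadjusted p under 0.05 was reached by 1512 higher and 3497 lower genes. The sign over pools was that over plates for 1081 of 1081 higher and 2454 of 2454 lower genes tested, which the pools share with the plates because they hold the same cells. DESeq2 over plates called 1540 higher and 4553 lower. More Aire-high than Aire-low cells were summed, which can make a patchy gene easier to detect in the former. With as many Aire-high as Aire-low cells per plate, a setting chosen after the values were seen, 821 of 16223 genes were higher and 1061 lower, and the median log2 value of the genes tested moved from -0.20 to -0.02. Of the calls above, 674 of the 1039 higher and 1001 of the 1621 lower genes that could be tested were called there too.

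The first set of higher genes was found in most Aire-low cells. These were the 10 protein-coding genes with the largest fold among those with 5 or more reads in at least 80% of Aire-low cells, a rule set after the values were seen. The protocadherin gene Pcdh1 had the largest fold (log2 3.397), followed by Ptprf, the receptor tyrosine phosphatase LAR. The set also held Klf5 and Klf3, zinc-finger transcription factors of epithelia, Sdc1, the heparan sulfate proteoglycan syndecan 1, Xdh, the xanthine dehydrogenase of purine breakdown, Slc5a9, a sodium-coupled sugar transporter, Asah2, a ceramidase, and Rptn, a protein of the cornified envelope. Inava completed the set. A sum over cells cannot tell fewer expressing cells from fewer reads per cell, so the share of cells is given with the levels.

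Ptprf (chromosome 4, 118208213 to 118291405) measured 977.2, 714.8, 1762, 796.2, 818.3, 725.4 and 538.5 CPM in the Aire-low cells of plates 1, 4, 21, 37, 39, 40 and 41. In the Aire-high cells of the same plates, in the same order, it measured 91.8, 56.7, 117.4, 87.5, 139.95, 69.4 and 63.7 CPM. The lowest Aire-low plate stood above the highest Aire-high plate, and Ptprf rose by 3.31 ± 0.17 on the log2 scale (SE, edgeR adjusted p = 1.2e-04). It had 5 reads or more in 98.4% of Aire-low, 81.6% of middle and 63.5% of Aire-high cells. Adult mTEClo (941.6 CPM, 5 plates) stood near the Aire-low level of 904.6 ± 400.3 CPM (SD, n = 7 plates). Of the set above only Klf3 did so too (334.98 against 315.03 CPM in Aire-low cells). The mTEClo mean was lower for Rptn (73.9 against 650.6 CPM), Slc5a9 (102.5 against 476.6), Asah2 (60.1 against 301.8) and Sdc1 (116.4 against 344.9). It was also lower for Xdh (218.3 against 394.99 CPM), Klf5 (184.2 against 306.8), Pcdh1 (77.9 against 184.2) and Inava (26.04 against 80.9). These differences were not tested.

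Klf5 (chromosome 14, 99298691 to 99315036) reached 262.8, 220.3, 439.1, 316.8, 363.1, 330.9 and 214.7 CPM in Aire-low cells against 36.8, 19.1, 36.04, 47.9, 75.5, 52.3 and 8.75 CPM in Aire-high cells. Again no plate overlapped, the log2 difference was 3.16 ± 0.28 (edgeR adjusted p = 4.7e-04), and 96.8% of Aire-low and 46.2% of Aire-high cells had 5 reads. Klf3 (chromosome 5, 64803388 to 64832901) ranged over 161.2 to 422.4 CPM in Aire-low and 23.1 to 79.2 CPM in Aire-high plates, a log2 difference of 2.92 ± 0.26. The related factor Klf4 rose too, from 46.3 to 226.9 CPM (log2 2.22, edgeR adjusted p = 4.0e-04), and it was picked after its values were seen. In Aire-KO mTEChi cells, set beside these without a test, Ptprf averaged 203.6 CPM, Klf5 29.9 and Klf3 79.1 over 4 plates.

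Sdc1 and Xdh were highest on plate 21, the females, with only 3 Aire-low cells. Sex, plate and cell number cannot be told apart there. Sdc1 was at 107.2 to 357.3 CPM on the other 6 Aire-low plates and at 1041 on plate 21, and Xdh at 213.9 to 387.6 and 808.4 CPM. Even so their Aire-high plates stayed at 16.8 to 42.7 and 24.3 to 66.6 CPM, below every Aire-low plate. Asah2 (118.6 to 620 against 12.6 to 33.3 CPM), Slc5a9 (231.1 to 660 against 22.2 to 108.1), Inava (47.6 to 127.3 against 6.71 to 13.5) and Pcdh1 (68.9 to 411.2 against 3.77 to 49.6) did not overlap either. Rptn did overlap, since its Aire-low value was 84.4 CPM on plate 21 and 330.4 to 1008 CPM elsewhere, against 22.2 to 154.8 CPM in Aire-high cells.

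**Figure D2:**
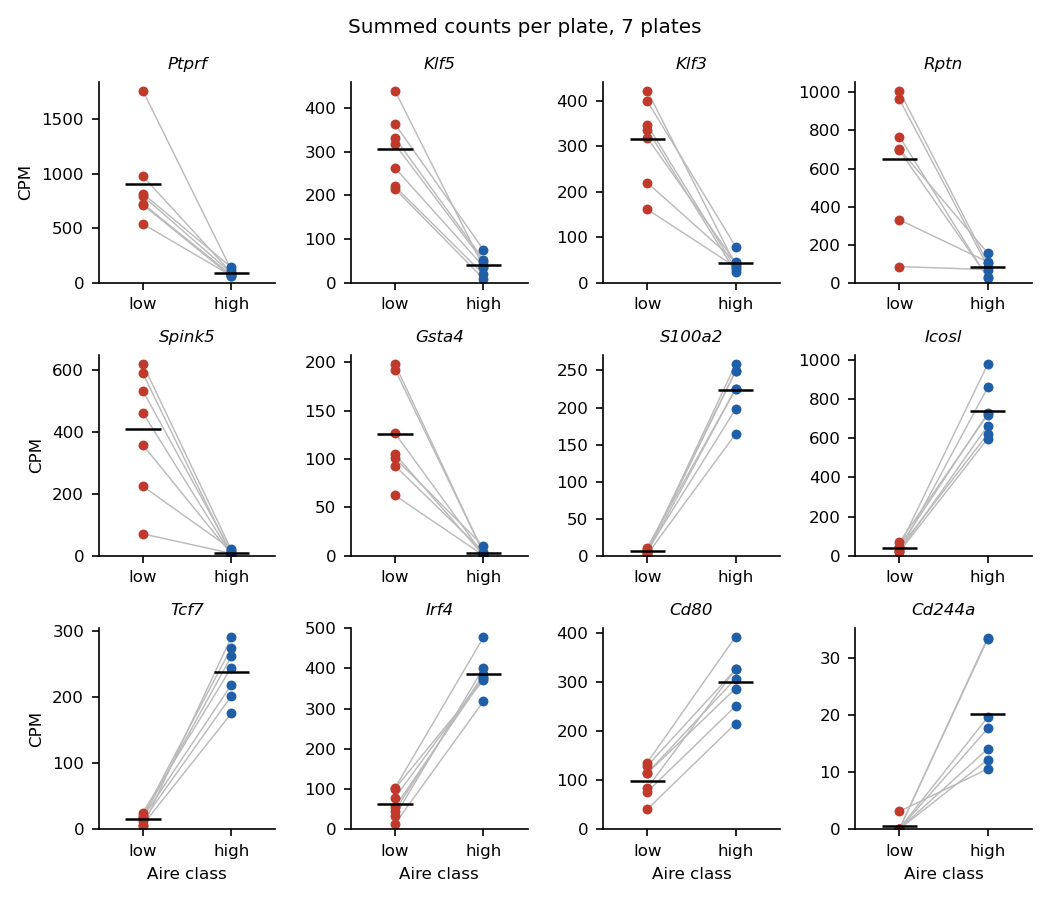
Summed counts (CPM, linear axes from 0) of 12 genes in Aire-low and Aire-high cells, 1 point per plate and class, grey lines joining the classes of a plate, black bars at the mean of 7 plates. Ptprf, Klf5, Klf3, Rptn, Spink5 and Gsta4 were higher in Aire-low cells, and S100a2, Icosl, Tcf7, Irf4, Cd80 and Cd244a lower.

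The largest folds among higher genes belonged to genes that only a part of the Aire-low cells transcribed. The 10 genes named by fold were Gsta4, Ptprh, Ces2e, Spink5, Rab27b, Adora2b, 1810046K07Rik, Lypd3, Casp12 and Slc15a1, with 5 reads or more in 22.2% (Adora2b) to 58.7% (Gsta4) of Aire-low and in 2.52% (Ptprh) to 16.7% (Spink5) of Aire-high cells. Several are known from gut or skin. Slc15a1 is the peptide transporter of the small intestine, Ces2e a carboxylesterase, Gsta4 a glutathione transferase that clears lipid peroxidation products, Spink5 the protease inhibitor of the outer epidermis, and Lypd3 a surface protein of stratified epithelia.

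Gsta4 (chromosome 9, 78182774 to 78209349) measured 126.7, 105.1, 192.5, 100.99, 92.98, 198.05 and 62.5 CPM in the Aire-low cells of the 7 plates and 1.12, 0.573, 3.21, 9.98, 4.21, 3.01 and 0.443 CPM in the Aire-high cells. The classes lay far apart on every plate, at a log2 difference of 5.87 ± 0.58 (edgeR adjusted p = 6.7e-04). Spink5 (chromosome 18, 43963235 to 44022501) measured 588.2, 224.1, 531.5, 357.7, 617.3, 460.97 and 70.9 CPM against 2.46, 21.6, 13.01, 5.78, 19.4, 3.59 and 8.09 CPM. Its lowest Aire-low plate was 41 and its highest Aire-high plate 4, which did not overlap, and the log2 difference was 5.38 ± 0.69 (adjusted p = 0.00162).

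Ces2e was less even. It reached 39.04 to 196.9 CPM on 6 Aire-low plates but 2.24 CPM on plate 1, within the Aire-high range of 0 to 7.54 CPM. The 3 cells with most Ptprh held 54.5% of its Aire-low CPM, and the same held for 1810046K07Rik (54.5%) and Adora2b (54.03%). Adora2b (adjusted p = 0.097) and Slc15a1 (0.085) were no longer called with equal numbers of cells. Rab27b (30.5 to 61.3 against 0.264 to 5.25 CPM), Lypd3 (43.7 to 323.5 against 0.287 to 9.03) and Casp12 (1.75 to 67.6 against 0.122 to 1.74) did not overlap. Casp12 on plates 1 and 40 shows how narrow this can be, with 1.75 CPM in Aire-low cells of the first and 1.74 in Aire-high cells of the second.

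Promoters are printed for 2 higher and 2 lower genes of the fold rule, chosen as the 3 that held a match to a motif below and 1 that held none. RefSeq starts on GRCm38.p6 were found for 15 of the 20 genes named by fold, 7 higher and 8 lower. The 250 bases before each start were searched on both strands for the octamer ATGCAAAT, which POU factors such as Pou2f3 can bind, and for the interferon-stimulated response element, which IRF factors can bind. Over 32851 promoters of that length the octamer stood in 1.601% and the second motif in 2.98%, and TATAAA in 12.4%. Capitals mark the matches, given as read on the gene's own strand.
Ptprh, higher in Aire-low cells, chr7:4604042-4604291, minus strand: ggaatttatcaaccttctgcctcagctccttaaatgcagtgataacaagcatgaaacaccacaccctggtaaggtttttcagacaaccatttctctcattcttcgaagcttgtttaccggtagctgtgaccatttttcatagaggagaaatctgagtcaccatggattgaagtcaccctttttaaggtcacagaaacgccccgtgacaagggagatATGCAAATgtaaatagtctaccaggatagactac
1810046K07Rik, higher, chr9:51328919-51329168, minus strand: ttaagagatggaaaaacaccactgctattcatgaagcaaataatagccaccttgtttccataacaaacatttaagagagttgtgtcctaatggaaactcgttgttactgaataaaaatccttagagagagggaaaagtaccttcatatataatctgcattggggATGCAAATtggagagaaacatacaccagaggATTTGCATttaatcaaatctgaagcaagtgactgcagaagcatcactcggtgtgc
Apol11b, lower, chr15:77643287-77643536, minus strand: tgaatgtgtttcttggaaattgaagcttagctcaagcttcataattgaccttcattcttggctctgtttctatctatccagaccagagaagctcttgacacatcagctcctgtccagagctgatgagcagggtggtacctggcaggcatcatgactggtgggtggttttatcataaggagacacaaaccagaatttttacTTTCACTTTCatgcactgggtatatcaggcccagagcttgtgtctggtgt
4931408C20Rik, lower, chr1:26687461-26687710, minus strand: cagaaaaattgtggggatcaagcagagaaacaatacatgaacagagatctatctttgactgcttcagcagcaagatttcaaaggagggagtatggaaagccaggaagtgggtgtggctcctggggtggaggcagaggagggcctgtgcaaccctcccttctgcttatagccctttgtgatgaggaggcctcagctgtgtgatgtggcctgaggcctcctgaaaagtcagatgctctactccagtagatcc
Ptprh held 1 octamer that began 34 bases before the start and 1810046K07Rik, a gene that led the tuft-like cells below, held 2 in opposite orientation, the farther one beginning 86 bases before the start. Apol11b held 1 match to the second motif, beginning 50 bases before the start, and 4931408C20Rik neither motif and no CG pair. No match was found for the other 5 higher and 7 lower genes, 4931408C20Rik included. A match describes letters and not a bound site. Promoter sequences covered 78% of the protein-coding genes tested, so the motifs of higher, lower and other genes were not compared.

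Among the lower genes, those that most Aire-high cells transcribed were S100a2, Col14a1, Larp6, Ttn, Col5a1, Icosl, Gm9195, Tvp23a, Tcf7 and Aif1l, the 10 of largest fold among genes with 5 reads or more in at least 80% of Aire-high cells (a rule set after the values were seen). S100a2 encodes a calcium-binding S100 protein, Icosl the ligand of the T cell costimulator ICOS, Tcf7 the transcription factor TCF1, Col14a1 and Col5a1 collagen chains, Larp6 an RNA-binding protein, Ttn the giant sarcomere protein titin, and Gm9195 is a predicted gene.

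S100a2 (chromosome 3, 90590247 to 90591508) measured 4.74, 7.63, 6.99, 11.3, 1.92, 5.29 and 4.20 CPM in Aire-low cells of plates 1, 4, 21, 37, 39, 40 and 41 and 258.3, 249.3, 197.8, 224.99, 164.5, 249.1 and 225.5 CPM in Aire-high cells. It thus separated the classes on every plate, with a log2 difference of -5.37 ± 0.27 (edgeR adjusted p = 1.2e-04) and 5 reads or more in 17.5% against 93.1% of cells. Icosl (chromosome 10, 78069302 to 78083913), which lies close to Aire on the same chromosome, measured 46.6, 23.03, 23.3, 38.5, 69.8, 20.7 and 46.9 CPM against 977.5, 664.01, 858.99, 621.8, 719.4, 598.03 and 727.4 CPM, a log2 difference of -4.37 ± 0.26 (adjusted p = 2.3e-04). Tcf7 (chromosome 11, 52252371 to 52283014) measured 20.4, 17.6, 4.20, 17.5, 12.6, 6.32 and 25.1 CPM against 274.8, 261.9, 290.7, 218.8, 201.8, 175.3 and 244.8 CPM (log2 -4.14 ± 0.33, adjusted p = 4.0e-04). All 3 genes were intermediate in the middle class, at 68.2, 310.2 and 89.5 CPM.

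Aire-KO mTEChi cells, which lack the factor but pass the same gate, are given side by side and were not tested against these classes. They averaged 228.5 CPM of S100a2, 817.6 of Icosl, 231.3 of Tcf7 and 387.3 of Col14a1 over 4 plates, values in the range of the Aire-high plates. Col5a1 (65.9 CPM in Aire-KO, 12.9 in Aire-low, 187.7 in Aire-high) and Ttn (1543, 147.04 and 2403 CPM) lay between. Ttn had 5 reads or more in 84.1% of Aire-low and 97.5% of Aire-high cells, so most Aire-low cells kept some reads of it. Gm9195 was the least even, at 228.4 and 245.2 CPM on Aire-low plates 21 and 39 and 0 to 12.5 CPM on the others (adjusted p = 0.049, and 0.070 with equal numbers of cells), with 87.1% of its Aire-low CPM in 3 cells.

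The lower genes with the largest fold were patchy ones with next to no reads in Aire-low cells: Tro, 4931408C20Rik, Apol11b, Robo3, Dchs2, Hand1, Adamts12, Smyd1, Cd244a and Mas1. For 9 of these 10 no Aire-low cell had 5 reads, and Cd244a had 1 such cell. A count of 0 in 63 cells allows a share of up to 4.76%, for counting error alone. Their fitted folds depend on the small count added by the tool and are not given as sizes. 4931408C20Rik, an uncharacterised gene, stood at 48.8, 56.1, 70.6, 57.8, 36.9, 58.9 and 83.5 CPM in Aire-high cells and at 0 to 0.466 CPM in Aire-low cells (edgeR adjusted p = 1.2e-04). At least 5 reads were in 43.1% of Aire-high cells. Cd244a, a receptor of natural killer cells, was found with 5 reads in 38.1% of Aire-high cells, Apol11b, an apolipoprotein L gene, in 33.3%, and Mas1, an angiotensin peptide receptor, in 27.4%.

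The remaining 6 were held by fewer Aire-high cells, from 7.55% for Smyd1, a methyltransferase of muscle, to 18.9% for Robo3, a receptor of axon guidance. Their Aire-high plates differed widely, with 1.56 to 100 CPM for Smyd1 and 6.87 to 138.5 CPM for Robo3. Tro, Robo3, Dchs2, Hand1, Adamts12, Smyd1 and Mas1 could not be tested with equal numbers of cells, as too few reads were left. In Aire-KO cells Hand1 (0.0888 CPM), Smyd1 (0.131), Tro (0.785), Dchs2 (1.80), Robo3 (1.89) and Adamts12 (3.61) stayed low. By contrast 4931408C20Rik (117.4 CPM), Apol11b (20.9), Cd244a (17.9) and Mas1 (16.4) did not. Both kinds of gene thus sat together among the genes that Aire-low cells lacked.

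The breadth of such rare transcription was counted per cell. Rare genes were the 5113 protein-coding genes with 5 reads or more in under 2% of mTEClo and of cTEC cells, a choice that used neither class, and every cell was thinned to 200000 reads. The choice also leaves out genes that Aire-low cells share with mTEClo. It can thus lower the Aire-low count, and by how much was not tested. By plate, Aire-low cells held a mean of 106.1 ± 31.4 rare genes (SD, n = 7 plates, 50.2 on the lowest plate) and Aire-high cells 195.5 ± 20.5 (169.6 to 227.7). The Aire-low mean was lower on 7 of 7 plates, by 89.4, and the highest Aire-low plate lay under the lowest Aire-high plate (2-sided exact permutation test over plates, p = 0.015625, the smallest that 7 plates allow, and adjusted p = 0.03125 over the 2 measures per cell). Over the 3 mouse pools the difference was -80.3 with p = 0.25 by the exact permutation test, the smallest possible there.

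**Figure D3:**
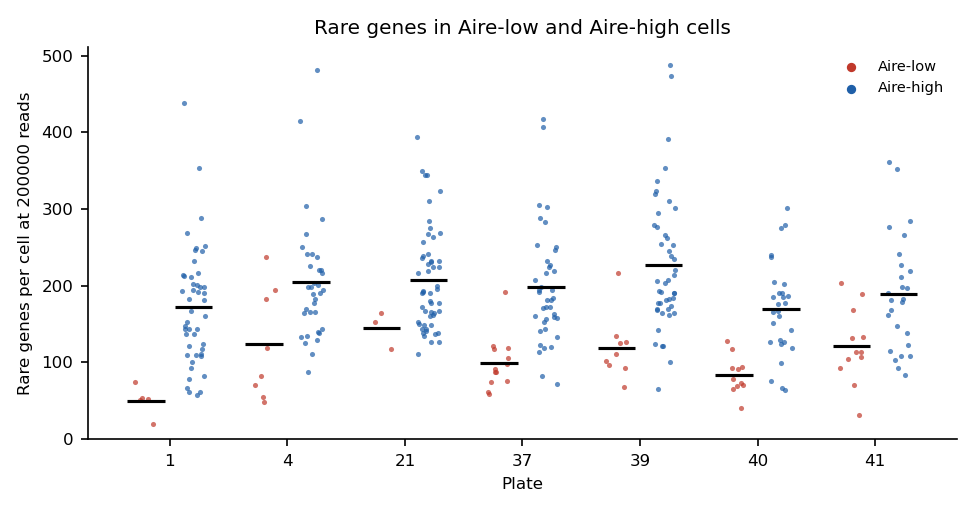
Rare genes per cell after thinning to 200000 reads, by plate, for Aire-low and Aire-high cells, with each cell as a point and the class mean as a bar. On each of the 7 plates the Aire-low mean lay under the Aire-high mean.

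The spread between cells was wide. Over cells the mean was 105.9 ± 46.4 rare genes (SD) in the Aire-low class, 157.3 ± 80.1 in the middle class and 199.4 ± 78.5 in the Aire-high class. Aire-KO mTEChi cells had a mean of 113.2 ± 55.7 and mTEClo cells, which the choice of these genes keeps low, of 47.2 ± 34.96, so that the Aire-low and Aire-KO means lay less than 1 SD apart, and the ranges of all these groups overlapped. All genes per cell differed less, with 10699 ± 440.5 in Aire-low and 11131 ± 206.3 in Aire-high cells, lower on 6 of 7 plates (exact permutation p = 0.046875 over plates, adjusted p = 0.046875 over the 2 measures). Counting genes from 5 reads on, the difference was -39.8 genes (exact permutation p = 0.547).

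Of 10 costimulatory genes tested, 6 were lower and 0 higher in Aire-low cells (Cd80, Cd86, Cd40, Cd70, Icosl and Icam1), beside 12% lower over all genes tested, and with equal numbers of cells 4 of 9 were lower. Cd80, the B7 ligand that marks mature medullary cells, measured 40.1, 113.8, 83.4, 75.8, 128.45, 113.5 and 135.1 CPM in Aire-low cells and 214.8, 306.2, 325.2, 250.3, 324.8, 286.05 and 391.7 CPM in Aire-high cells. No plates overlapped (log2 -1.68 ± 0.15, edgeR adjusted p = 5.2e-04), yet 95.2% of Aire-low cells had 5 reads of it and their mean of 98.6 CPM stood above the 21.4 CPM of mTEClo. The median log2 of the list was -1.54 beside -0.20 over all genes tested. Cd40, the receptor through which T cells signal to medullary cells, went from 319.7 ± 38.1 to 54.6 ± 29.5 CPM. Cd86 was lower at an adjusted p of 0.043 and not called with equal numbers of cells (0.171). Cd274, the ligand of PD-1, averaged 331.6 CPM in Aire-low and 311.2 in Aire-high cells and was not called.

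MHC class II was the sort gate, which limits what its transcripts can show. H2-Aa measured 1127 ± 327.3 CPM in Aire-low and 1623 ± 193.8 in Aire-high cells, a difference under the fold limit (log2 -0.58, adjusted p = 0.045), against 680.8 CPM in mTEClo. Beside 12% lower over all genes tested, 4 of the 12 genes of the pathway were lower and 0 higher. They were Ciita, the master transactivator of the class II genes (194.6 ± 104.8 against 792.7 ± 123.5 CPM), H2-DMb2, and H2-Oa and H2-Ob, the subunits of the peptide-loading modulator DO. H2-Ob fell the most, from 187.97 ± 27.8 to 26.99 ± 22.5 CPM (log2 -3.20 ± 0.52, adjusted p = 0.00401). Ctss, the protease that trims the invariant chain, was under the fold limit at log2 -0.93.

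Part of the genes upstream of Aire were lower as well, beside 12% lower and 5.28% higher over all genes tested. Of 16 RANK and NF-kB genes 6 were lower, namely Cd40, the adaptor Traf6, the noncanonical NF-kB subunits Relb and Nfkb2, the inhibitor Nfkbie and the ligase Birc2, and 1 was higher, the lymphotoxin receptor Ltbr. Relb measured 70.4 to 262.99 CPM in Aire-low and 275.7 to 483.7 CPM in Aire-high plates (log2 -1.24 ± 0.23, adjusted p = 0.00704). Ltbr went the other way, from 27.4 ± 6.33 to 88.6 ± 25.5 CPM, and did so on 7 of 7 plates (log2 1.67 ± 0.16, adjusted p = 6.4e-04). Tnfrsf11a, which encodes RANK, averaged 381.4 and 623.3 CPM and missed the threshold (adjusted p = 0.054).

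Among 10 factors listed as inducers of Aire, 4 were lower (Irf4, Irf8, Relb and Tcf7) and 1 higher (Ets2). Over all genes tested 12% were lower and 5.28% higher. Irf4 measured 78.5, 32.4, 46.2, 13.4, 100.8, 54.98 and 102.7 CPM in Aire-low cells and 378.1, 400.7, 385.6, 317.9, 370.6, 376.5 and 477.3 CPM in Aire-high cells. The 2 ranges were far apart, at log2 -2.90 ± 0.34 (adjusted p = 0.00127), and 58.7% of Aire-low cells still had 5 reads. Irf8 overlapped on plate 1 (404.2 CPM in Aire-low cells against 370.3 on Aire-high plate 37) with log2 -1.48. Ets2 rose from 106.3 ± 23.1 to 306.2 ± 89.6 CPM. Fezf2, which drives a further set of self-antigens, measured 180.97 ± 107.04 against 480.6 ± 71.4 CPM (log2 -1.67, adjusted p = 0.032), with 20.5 CPM on plate 21 and 377.7 on plate 1.

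Of 17 genes for proteins that work with Aire, 14 were not called and 3 were lower, a share near the 12% of all genes tested. The lower ones were Sirt1, the deacetylase that acts on Aire (118.96 ± 66.7 against 931.6 ± 156.8 CPM, log2 -3.16 ± 0.25, adjusted p = 4.0e-04), the poly-ADP-ribose polymerase Parp1 (23.5 against 63.99 CPM) and the topoisomerase Top2a, a gene of dividing cells. Top1 and Chd4 averaged 132.8 and 269.8 CPM in Aire-low and 90.3 and 247.2 CPM in Aire-high cells. In the remaining lists the median log2 was -0.99 for 11 chemokines, with Ccl22, Ccl25 and Cxcl10 lower and 0 higher, and 0.21 for 14 interferon-response genes, with Mx1 lower. Cxcl10 measured 70.7 ± 72.5 against 472.4 ± 102.5 CPM. Ccr7, the chemokine receptor of mature thymocytes and dendritic cells, was picked after its values were seen, at 7.27 against 113.2 CPM (log2 -4.62).

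**Figure D4:**
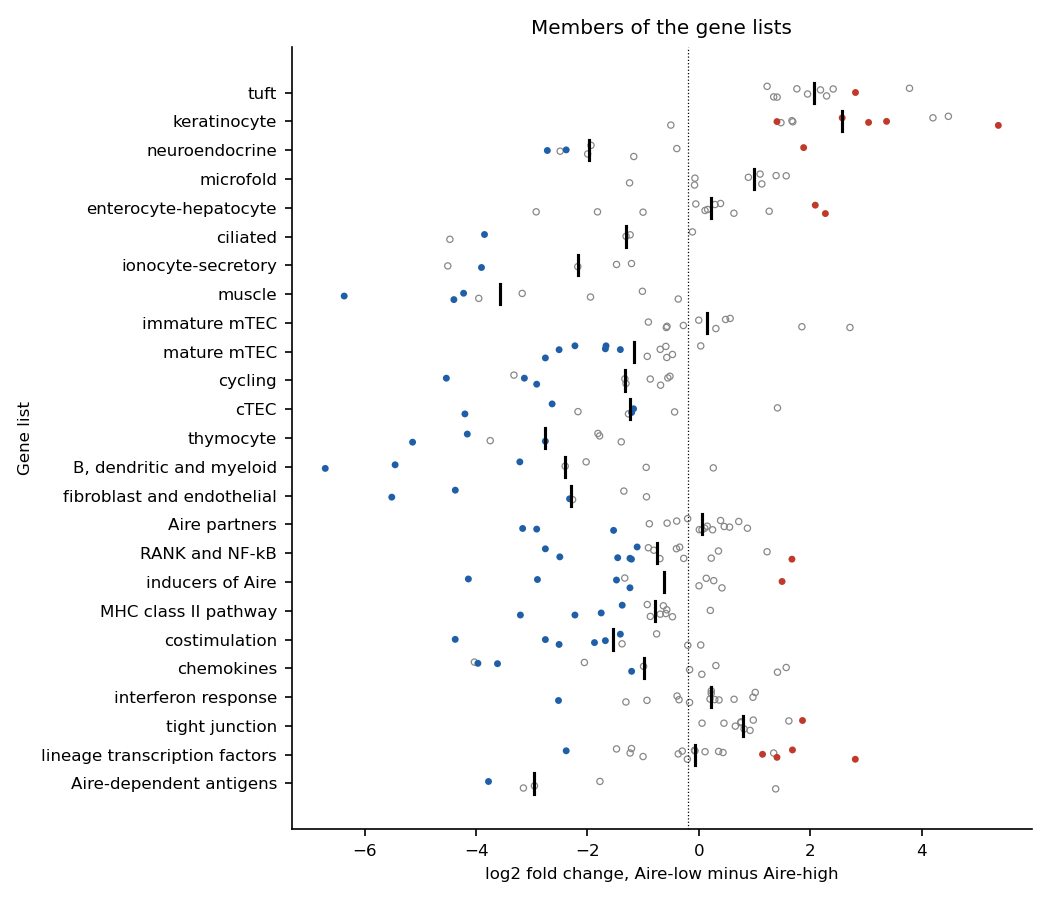
log2 fold change (Aire-low minus Aire-high) of the tested members of 25 gene lists, 1 point per gene with the called members filled, and the dotted line at the median of all genes tested (-0.20). Keratinocyte and tuft markers lay mostly to the right, and costimulatory genes and muscle, thymocyte and fibroblast markers mostly to the left.

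Cell type markers were used to describe the kinds of cell that the Aire-low class could hold, and most lists had few called members. Of 11 keratinocyte markers tested, 5 were higher and 0 lower, beside 5.28% higher over all genes tested. The higher ones were Krt10, Sbsn, Spink5, Dmkn and the transcription factor gene Grhl1, and the list median was 2.57. Dmkn, an epidermal secreted protein, measured 216.01 ± 101.02 against 25.4 ± 26.5 CPM. Krt10, the keratin of differentiating epidermis, had 77.4% of its Aire-low CPM in 3 cells, at 6.48 to 170.3 CPM by plate. Ivl, the cornified envelope protein involucrin, was not called (12.2 and 6.38 CPM). The list median was 2.07 for 10 tuft markers, yet only Pou2f3, the master factor of tuft cells, passed (291.98, 368.4, 122.6, 227.8, 142.2, 92.9 and 6.08 CPM against 8.03 to 43.4 CPM, log2 2.81 ± 0.84, adjusted p = 0.043). Trpm5, the tuft ion channel, was at 634.1, 402.7, 177.2 and 371.3 CPM on Aire-low plates 1, 4, 37 and 39 and at 0 to 0.885 CPM on plates 21, 40 and 41, which is why it did not pass. In newborn cells the list median was -0.23 for 8 tuft markers and 3.10 for 10 keratinocyte markers.

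Enterocyte and hepatocyte markers gave 2 higher of 12, where 5.28% were higher and 12% lower over all genes tested. The 2 were Saa1 (serum amyloid A) and the intestinal surface antigen Gpa33 (250 ± 125.4 against 47.8 ± 15.6 CPM). Hnf4a was found with 5 reads in 8 Aire-low cells and was not called. Lypd8, a colonic protein that keeps bacteria off the epithelium, missed the threshold (264.5 ± 161.4 against 91.99 ± 38.2 CPM, adjusted p = 0.0515). Of 8 microfold markers 0 were called. Gp2, the bacterial receptor of those cells, was uneven at 440.7 and 325.6 CPM on Aire-low plates 41 and 40 and 0.466 on plate 21, and Spib averaged 417.5 and 437.6 CPM in the classes. Among 18 lineage transcription factors 4 were higher, Pou2f3, Grhl1, Ehf and Elf3, the last an epithelial ETS factor at 200.1 ± 42.3 against 63.3 ± 19.8 CPM. Insm1, the zinc-finger factor of endocrine cells, was lower (38.3 ± 14.2 against 195.1 ± 58.9 CPM, log2 -2.38 ± 0.19, adjusted p = 4.0e-04). Of 8 neuroendocrine markers, Insm1 and Syp were lower and Scg5 higher. The claudin gene Cldn3 was the only one of 10 tight-junction genes called (128.7 ± 61.5 against 34.4 ± 17.3 CPM), and not with equal numbers of cells (adjusted p = 0.051).

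No marker of immature medullary cells was called among 10 tested. Krt5 averaged 301.1 ± 278.2 CPM in Aire-low and 54.5 ± 13.02 in Aire-high cells (adjusted p = 0.074), and Ccl21a 10.3 and 4.71 CPM against 74.3 CPM in mTEClo. Cycling genes were lower in 3 of 10 (Mki67, Top2a and Cdk1), of which Mki67 and Top2a were not called with equal numbers of cells. In the smaller lists, counts of 1 in 5 say nothing beside the 12% lower over all genes tested. Muscle markers were lower in 3 of 8 (Ttn, Tnnt3 and Mymk), ciliated markers in 1 of 5 (Dnah5), secretory ones in 1 of 5 (Muc5b), known Aire-dependent antigens in 1 of 5 (Pcp4) and cTEC markers in 4 of 8 (Psmb11, Prss16, Ccl25 and Tbata). The thymoproteasome gene Psmb11 measured 0 to 3.76 CPM in Aire-low and 6.81 to 15.1 CPM in Aire-high plates.

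Markers of other cells moved with the classes too, given here beside the 12% lower over all genes tested. The summed thymocyte list, with 3 of 7 tested members lower (Lck, Rag1 and Cd4), was at 9.22 to 55.9 CPM in Aire-low and 65.8 to 267.2 CPM in Aire-high plates. For B, dendritic and myeloid cells, with Cd79a and Adgre1 among the lower members, the sums were 25.4 to 769.2 against 292.99 to 507.9 CPM, and for fibroblasts and endothelium, with Col1a1, Col1a2 and Pdgfrb lower among 6, they were 47.7 to 198.1 against 252.99 to 468.7 CPM. No member of these lists was at 0 in the summed Aire-low or Aire-high cells, though Cd3e, too low to be tested, was at 0 to 0.320 CPM in Aire-low and 0.102 to 25.5 CPM in Aire-high plates. Col1a1 turned to log2 0.37 with equal numbers of cells. Whether these reads were transcribed by the Aire-high cells or came from RNA of other cells was not tested.

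All 620 cells were then clustered with Aire left out of the variable genes, as a description, and 57 of the 63 Aire-low cells fell into 3 of the 7 clusters. Cluster 2 held 41 Aire-low, 75 middle and 6 Aire-high cells, that is 65.1% of the Aire-low and 1.89% of the Aire-high cells, and its Aire-low cells came from all 9 plates. Its leading genes were Car8, Cxcl5, Pigr, Gsta4, Ces2e, Serpina7, Lypd3, Hsd17b6, Guca2a and Guca2b. Pigr is the receptor that carries IgA across mucosal epithelia, and Guca2a and Guca2b are the guanylin peptides of the gut. None of these 10 was on a marker list, so the cluster was left unnamed. Within it the median of Cd80 was 82.9 CPM in Aire-low, 161.4 in middle and 128.03 in Aire-high cells, that of Pigr 280.2, 86.4 and 197.8 CPM, and that of Muc13, a mucin of gut surfaces, 168.8, 53.9 and 130.02 CPM.

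Cluster 5 (19 cells) held 10 Aire-low, 7 middle and 2 Aire-high cells and was tuft-like, with Plcb2 and Alox5ap among its leading genes and cell medians of 609.7 CPM for Trpm5, 1013 for Avil and 519.4 for Pou2f3, against 0 to 2.85 CPM in every other cluster. Its Aire-low cells came from 5 plates, among them plate 21. The summed Aire-low cells of plate 21 had 0 CPM of Trpm5 and 12.1 of Avil, yet 122.6 of Pou2f3. No Trpm5 read was thus found there in the Aire-low part of the cluster. Cluster 6 had only 7 cells, 6 of them Aire-low from 4 plates and none Aire-high. It was led by Gas1, Boc, Gpr139, Slitrk4, Serpina3n, Col6a2, Scx, Cpxm1, Lrrc17 and Lifr, and had the highest medians of Krt5 (1311 CPM), Itga6 (1731) and Trp63 (790.4), genes of basal epithelium. Its Cd80 median was 25.9 CPM. It stayed unnamed.

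**Figure D5:**
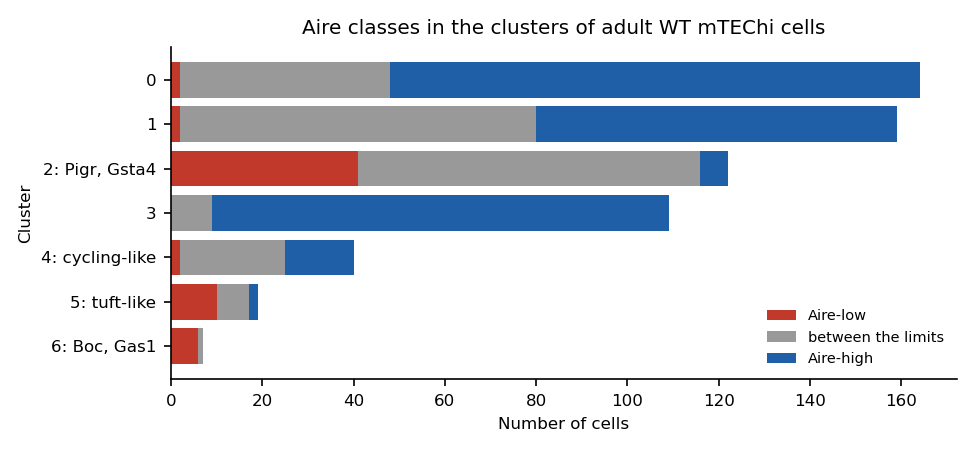
Number of Aire-low, middle and Aire-high cells in each of the 7 clusters of adult WT mTEChi cells. Cluster 2 held 41 of the 63 Aire-low cells, clusters 5 and 6 a further 10 and 6, and cluster 3 none.

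Most Aire-high cells lay in clusters 0, 1 and 3 (36.5%, 24.8% and 31.4% of them), where only 4 Aire-low cells were found, and cluster 4, with Ccna2 and Mki67 among its leading genes, was cycling-like with 2 Aire-low, 23 middle and 15 Aire-high cells. Rare genes per cell inside the Aire-low class, given without a test, had means of 109.4 ± 38.1 (SD over cells) in its 41 cells of cluster 2, 83 ± 36.7 in the 10 tuft-like cells and 60.8 ± 21.9 in the 6 cells of cluster 6. The 2 Aire-low cells of cluster 0 averaged 193.5, and both Aire-low cells of cluster 4 lay above the mean of its Aire-high cells (107.9). In cluster 2 the middle cells were at 123.8 ± 39.3 and the 6 Aire-high cells at 170.2 ± 62.1. Without the tuft-like cells 912 genes were higher and 1819 lower, and without clusters 5 and 6 the counts were 881 and 1867, both over 6 plates and added after the values were seen. Without the tuft-like cells the fitted log2 of Trpm5 was -3.47 and that of Avil -0.58.

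Newborn mTEChi cells, which the adult comparison did not use, were split at the same limits into 17 Aire-low (9.94%), 47 middle and 62.6% Aire-high cells. Over the 4 plates with at least 3 cells of each class (15 Aire-low and 81 Aire-high cells) 57 of 17478 genes were higher, which is 0.326%, and 160 lower, which is 0.915%. Of the adult calls, 925 of the 1014 higher genes tested there had the same sign (91.2%) and 1896 of the 1934 lower genes, whereas over all 17144 genes tested at both ages 40.6% were above and 59.4% below 0. At both ages 43 genes were called higher, 4.24% of the adult and 75.4% of the newborn calls tested in the other age, and the lower calls of both ages made up 6.26% and 76.6%. No gene was called in opposite directions. At 3 residual degrees of freedom no newborn call was left when any 1 plate was left out.

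Newborn calls among the genes named above included Ptprf (log2 2.31, edgeR adjusted p = 0.039), Klf3 (3.82, 0.037), Inava (3.23, 0.046), Spink5 (5.38, 0.047) and Pigr (3.73, 0.037) among the higher ones. S100a2 (-5.14, 0.046), Tvp23a (-4.86, 0.039), Ttn (-5.31, 0.043), Sirt1 (-3.02, 0.046) and H2-Ob (-5.94, 0.034) were called among the lower ones, as were 4 of the 10 patchy lower genes named by fold, Robo3 (adjusted p = 0.036), Mas1 (0.037), 4931408C20Rik (0.048) and Cd244a (0.049), whose fitted folds are again not given as sizes. Klf5 (2.96, 0.061), Gsta4 (4.77, 0.062), Icosl (-3.85, 0.091), Tcf7 (-3.90, 0.078) and Irf4 (-3.71, 0.16) had the adult sign and missed the threshold. Ptprh was at -0.82, Scg5 at -0.54 and Tro at 1.42, against the adult sign and far from the threshold. Prss16 and Psmb11 were at 0.89 and 1.26 in newborn plates where both were lower in adults, and that difference between ages was not tested.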

How the data were processed

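The authors deposited 1 table of gene counts, whole numbers of reads left after duplicates were removed, with a column for every cell. The authors trimmed reads with fastp 0.20.0, mapped them to mm10 with STAR 2.7.3a, removed duplicates with Picard 2.21.1 and counted without strand with HTSeq 0.11.2, so overlapping and antisense genes cannot be told apart. Names and positions came from GENCODE M21 (GRCm38). No column of values was left unused.

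Cells were split by Aire CPM, at 64 and 1000, and counts were summed per plate and class. Genes were tested with edgeR 4.0.16 (R 4.3.3): TMM scaling, filter on low counts, plate as block, 2-sided, called at an adjusted p under 0.05 and a log2 fold of at least 1. The blocks are the plates of the labels, each holding both classes. DESeq2 1.42.0 and limma 3.58.1 served as alternatives, and Seurat 5.3.0 clustered cells (6000 variable genes without Aire, 30 components, resolution 0.8). Doublets were not called, as wells were sorted singly. For measures per cell, cells were thinned to 200000 reads and class means compared by exact permutation over plates. The test was checked on counts simulated with the same spread in both classes and no plate effect. That check cannot show how a larger spread in sums of few cells would change the calls. p-values and intervals cover the spread between plates and counting error only.

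Named genes were the 10 protein-coding genes of largest fold in each direction among those called, at 20 CPM or more in the higher class and in the same direction on every plate, plus 30 preset genes. Members and gene lists were chosen with earlier results of these data known.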

Additional observations from a re-analysis of the deposited data

Results flagged for a closer look

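In 18.5% of the sets of 7 plate values per named gene and class (27 sets), 1 plate stood apart from the others by Dixon's criterion, which chance alone gives in about 1 of 20 sets. Plate 21, with only 3 Aire-low cells, was the high one for Ptprf (1762 CPM), Sdc1 (1041) and Xdh (808.4) in Aire-low cells. In the Aire-high cells of that plate 1810046K07Rik (10.4 CPM) and Pcdh1 (49.6) stood out, and in its Aire-low cells Hand1 (0.932). On plate 4 the Aire-low cells were high for Chga (270.9 CPM) and Foxj1 (122.6), and the Aire-high cells for Apol11b (60.4) and Smyd1 (100.1). Plate 1 was high for Ins2, the insulin gene, in both classes (110.2 CPM in Aire-low and 94.2 in Aire-high cells). On plate 40 Tro was high in both classes (0.854 and 88.3 CPM), as were Ccl21a (32.4) and Ttn (382.4) in Aire-low cells and Cd86 (116.2) in Aire-high cells, while Col5a1 was low in its Aire-high cells (91.95). On plate 41 Cd244a (3.10), Hnf4a (93.1) and Mki67 (95.99) were high in Aire-low cells and Larp6 (122.3) in Aire-high cells. On plate 39 Smyd1 (0.639) was high in Aire-low cells, and Krt10 (11.6) and Ivl (28.3) in Aire-high cells. On plate 37 Gsta4 (9.98) and Klf3 (79.2) were high in Aire-high cells.

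Psmb11 moved in opposite directions in all plates of the adult and the newborn comparison, with a newborn log2 of 1.26 where the adult value was -4.20, and the difference was not tested.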

How the results depend on the processing

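Of the settings tried for the named and listed genes that were called, 2053 gene values (81.9%) kept direction and call, 18.0% kept direction and missed the threshold, and 1 turned, Col1a1 at log2 0.37 with equal numbers of cells. Below, calls are expressed per 100 genes listed in the deposited table, tested or not, so that the plate-blocked comparison stands at 2.23% higher and 5.07% lower. The counts depended on the unit and on the 4-week males. Mouse pools as units with the pool as replicate block gave 0 higher and 0 lower genes, and no replicate block over plates gave 3.08% and 4.50%. Leaving out 1 plate or pool gave 0 to 2.16% higher and 0 to 4.54% lower, where 0 came from leaving out the 4-week males, which hold 5 of the 7 plates, and single plates gave 1.73% to 2.16% and 3.59% to 4.54%. A limit of 32 CPM for Aire-low gave 1.15% and 2.38%, DESeq2 9.40% lower and equal numbers of cells 2.19% lower. In newborn cells, with 0.118% higher and 0.330% lower, no replicate block gave 0.801% and 1.92%, DESeq2 1.80% and 4.94%, at least 1 cell per class 0.235% and 0.902%, equal numbers of cells 0.0537% and 0.0867%, no filter 0.787% lower, and leaving out any plate 0 to 0. The cause of these shifts was not tested, beyond the fewer cells, plates or degrees of freedom of each setting.

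Genes per cell differed by -39.8 from 5 thinned reads on, -629 without thinning (exact permutation p = 0.0625) and -189 over pools (p = 0.75 by exact permutation), and by -542 to -366 when a plate was left out, where its call was lost without any plate but plate 21 (exact permutation p = 0.0625 to 0.09375, and 0.03125 without plate 21). Rare genes per cell differed by -80.3 over pools, -42.4 from 5 reads, -117 without thinning and -93.8 to -83.9 when a plate was left out. At resolution 1.6 the cluster with most Aire-low cells held 24 of them, and 33 to 49 under the other clusterings.

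The other turned signs were of genes not called. Ccl21a was at -1.33 (pools), -0.22 (at least 1 cell), -1.16 (without both small clusters) and -3.10 to 0.84 when a plate or pool was left out. Trpm5 was at -3.47 and -3.41 without the tuft-like cells and without both small clusters, and -0.73 to 2.46 with a unit left out, and Avil at -0.58 and -0.48. Hnf4a was at 0.30 (pools), 1.30 (no replicate block), 0.25 (at least 5 cells), 1.49 (limit of 32 CPM), 0.67 and 0.81 without the small clusters, and -2.90 to 0.25 with a unit left out. Chd4 was at -0.027 without the filter, -0.033 with at least 1 cell, -0.026 with at least 5 cells, -0.035 at 32 CPM, -0.056 and -0.15 without the small clusters, and -0.026 to 0.40 with a unit left out. Chga was at 0.55 (no replicate block), 0.0091 (the wider limit for Aire-low) and 0.078 (equal cells), Ivl at -2.38 (32 CPM), and Spib at 0.23 (32 CPM) and 0.0016 (Aire-high from 500 CPM). With a unit left out Gp2 was at -1.06 to 1.69, Foxj1 at -1.65 to 0.73 and Epcam at -0.22 to 0.61, where the turned signs came without the 4-week males.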
